A study of Homo sapiens with 24 samples.

Results

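The Fanconi anaemia and homologous recombination genes were followed in 4 triple-negative breast cancer cell lines during cisplatin exposure. Members were the genes of a list of 38 symbols whose probes were detected (detection p under 0.05) on at least 2 of 24 arrays. Of the 38, 34 had an annotated probe and 31 were kept, out of 14807 genes kept in all. The 4 without an annotated probe (FANCA, FANCD2, BRCA2 and RBBP8) were not analysed here, and FANCF, FANCM and RAD50 were detected on 0 arrays. The lines, all derived from human breast tumours, were MDA-MB-231, MDA-MB-157, HCC38 and BT549. Each was taken before cisplatin and after 24 h and 72 h in a 2 µM dose of the drug, with 2 replicates in each of the 12 line-by-time groups. The 0 h arrays are each line's control. No culture kept without drug for 24 h or 72 h was analysed here, and the effects of cisplatin and of further growth in culture therefore cannot be told apart. Each group rests on an established line as a whole. P-values measure the spread between replicates within groups, pooled for each gene over the 12 groups. RNA was hybridised to single-colour Illumina bead arrays on 2 slides, each with 1 array of every group.

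Cisplatin joins bases within a DNA strand and, more rarely, across both strands. The Fanconi core complex recognises a replication fork that has stalled at such an interstrand crosslink and, with the E2 enzyme UBE2T, attaches ubiquitin to the FANCD2-FANCI pair. Nucleases then cut the crosslink out, and the double-strand break that results is resected and repaired from the sister chromatid by BRCA1, PALB2, BRCA2 and the factors of strand exchange. BLM and its partners RMI1 and RMI2 take the joined DNA molecules apart afterwards. Loss of this repair in breast tumours is known for making cells sensitive to platinum drugs. The genes are expressed mostly in proliferating cells, around DNA replication.

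Levels below are log2 intensities after background correction and quantile normalization, differences are log2 changes, and a gene is called changed at a Benjamini-Hochberg adjusted p under 0.05 over all 14807 genes in limma. Between 18303 and 21976 of 47322 probes were detected per array, and precision is limited by having 2 arrays in a group. ESR1, the oestrogen receptor, was detected on 0 of 24 arrays, and the leukocyte genes PTPRC and CD3E and the endothelial genes CDH5 and VWF also on 0. CD14 and CD68, which were on the leukocyte list, were detected on all 24, and the endothelial gene PECAM1 on 3 of 6 arrays each of MDA-MB-157 and MDA-MB-231. The progesterone receptor gene PGR was detected on 2 of 6 MDA-MB-157 arrays and on 0 elsewhere, while ERBB2 was detected on every array, from 7.84 to 9.97. BT549 was low in several epithelial markers, with EPCAM detected on 4 of 6 arrays at 4.38 to 6.50 and KRT18 on 2 at 4.50 to 5.14. KRT7 and KRT19 were detected there on all 6 at 7.06 to 8.72 and 6.10 to 6.65. MDA-MB-157 was low in KRT7 (3 of 6 arrays, 4.58 to 5.34) and KRT19 (5 of 6, 4.71 to 6.78), with EPCAM and KRT8 detected on all 6. CDH1 lay at 11.07 to 11.32 in HCC38 and at most at 6.16 in BT549, 5.43 in MDA-MB-157 and 6.39 in MDA-MB-231. One library stood apart. The MDA-MB-231 arrays at 0 h differed over 2-fold in 765 genes, 6 members among them, and 27 of the 31 members lay lower in replicate 2, by a median of 0.55. On the same array the 39 genes of G1/S and DNA replication lay lower by a median of 0.92, the 32 of G2/M and mitosis by 0.79 and all 11 housekeeping genes by a median of 0.53. Under quantile normalization, member counts above 0 are given with and without this array. So are the averaged 24 h count at an unadjusted p under 0.05 and single-member averages that it moves by over 1.5 times. Other member counts, and the counts and medians of role groups, are given only with it or as ranges over single arrays left out.

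Across the 4 lines, the members tended to lie higher at 24 h of cisplatin than before it, by small amounts that no single gene carried past the threshold. Averaged over the lines, 27 of 31 members lay above 0 at 24 h, against 48.4% of all genes, and the median member change was 0.24, against -0.01 for all genes. limma called 0 members at 24 h, where 0.0135% of all genes were called. At an unadjusted p under 0.05 there were 16 members (51.6%, against 8.75% of all genes), all of them higher, where 4.27% of all genes were higher. The lowest adjusted p was 0.15, for BLM. The changes ran from -0.10 for MUS81 to 0.64 for BLM. Without replicate 2 of MDA-MB-231 at 0 h the median was 0.17, with 28 members above 0 and 9 at an unadjusted p under 0.05 (7.52% of all genes). Without replicate 1 in its place the median was 0.33, and 4 members were called (BLM, EXO1, TOPBP1 and RAD54L), among 130 of the 14807 genes. With arrays scaled to their median instead of quantile normalized, the median of all genes was -0.09 and that of the members 0.09, with 23 members above 0.

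At 72 h fewer members lay above their 0 h level. Averaged over the lines, 23 of 31 lay above 0, against 49.7% of all genes, with a median of 0.18 against -0.00. limma called 0 members, where 1.21% of all genes were called. There were 12 members at an unadjusted p under 0.05 (38.7%, against 15.5% of all genes), 11 higher (7.48% of all genes) and 1, NBN, lower (8.04%). FANCB had the lowest adjusted p, 0.053, and BARD1 followed at 0.060. Without replicate 2 of MDA-MB-231 at 0 h the median was 0.09 with 19 members above 0, and without replicate 1 it was 0.21 with 9 members called, among 541 of the 14807 genes. FANCB alone was called when replicate 2 at 0 h, either replicate at 24 h or replicate 1 at 72 h of BT549 was left out, and BRCA1 alone without replicate 1 of HCC38 at 0 h. With arrays scaled to their median, the members' median was 0.02, against -0.08 for all genes, with 18 members above 0. From 24 h to 72 h the median member change was -0.06, and 8 of 31 lay above 0 (50.4% of all genes). Here too limma called 0 members (0.149% of all genes), and 4, all lower, had an unadjusted p under 0.05 (10.3% of all genes, 5.04% lower). They were NBN at -0.35 (SE 0.10), FAN1 at -0.51 (SE 0.17), RMI1 at -0.26 (SE 0.10) and BLM at -0.31 (SE 0.13). Further probes gave -0.14 for NBN and -0.20 for RMI1. The FAN1 value includes a BT549 array at 72 h on which its probe was not detected. Both comparisons with 0 h share the 0 h arrays.

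**Figure D1:**
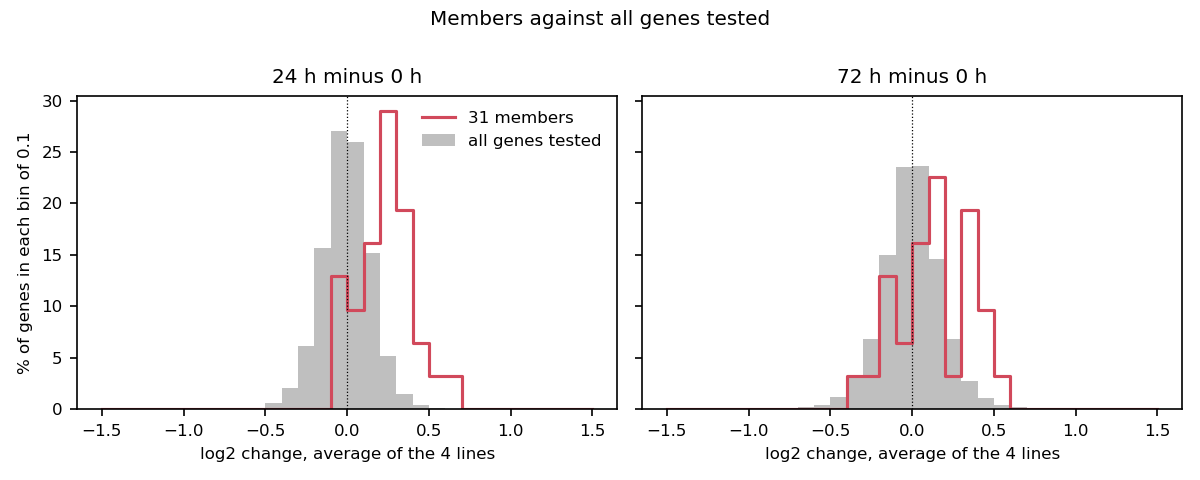
Distribution of the log2 change averaged over the 4 lines at 24 h (left) and 72 h (right). Grey bars give the percent of all 14807 genes in each bin of 0.1, and the red outline gives the percent of the 31 members. The outline lies to the right of the bars, with medians of 0.24 and 0.18 against -0.01 and -0.00.

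The direction was shared by the lines more often than for genes at large. At 24 h, 16 of 31 members lay above their own line's 0 h mean in all 4 lines, a share of 51.6% against 8.83% of all genes. At 72 h there were 11 (35.5%, against 9.1%). This was not particular to the members. Among the 39 measured genes of G1/S and replication, 30 lay above 0 in all 4 lines at 24 h and 22 at 72 h. Without replicate 2 of MDA-MB-231 at 0 h the member counts were 9 at 24 h (7.94% of all genes) and 6 at 72 h (9.46%). Under median scaling 0 members lay above their 0 h mean in all 4 lines at either time, where 2.09% of all genes did so at 24 h and 3.03% at 72 h. Relative to each line's median of all genes under that scaling, the shares were 32.3% against 7.43% at 24 h and 25.8% against 6.53% at 72 h. In single lines limma called 0 members at either time. The share of all genes called was 0% in HCC38, MDA-MB-157 and MDA-MB-231 and 0.027% in BT549 at 24 h. At 72 h it was 0.081% in HCC38 and in MDA-MB-157, 1.01% in BT549 and 0.00675% in MDA-MB-231. At an unadjusted p under 0.05 there were 2 members at 24 h and 4 at 72 h in HCC38 (4.42% and 10.3% of all genes), and 3 and 2 in BT549 (5.54% and 12.5%). MDA-MB-157 had 5 and 4 (4.25% and 6.88%), and MDA-MB-231 9 and 5 (8.57% and 9.35%). The members' medians at 24 h were 0.19 in HCC38, 0.19 in BT549, 0.35 in MDA-MB-157 and 0.32 in MDA-MB-231. At 72 h they were 0.07, 0.01, 0.22 and 0.27 in the same order. The MDA-MB-231 medians were 0.12 and -0.08 without replicate 2 at 0 h, and 0.61 and 0.51 without replicate 1. Under median scaling the members' medians in HCC38 were -0.18 and -0.26, beside -0.28 and -0.22 for all genes, and in BT549 -0.36 and -0.65, beside -0.40 and -0.47. In MDA-MB-157 they were 0.47 and 0.48, beside 0.09 and 0.17, and in MDA-MB-231 0.60 and 0.49, beside 0.16 and 0.12. The negative signs in HCC38 and BT549 came with a shift of all genes. Relative to all genes under median scaling, the members lay higher there at 24 h and lower at 72 h. Under quantile normalization their 72 h medians of 0.07 and 0.01 lay above the -0.01 of all genes in either line.

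**Figure D2:**
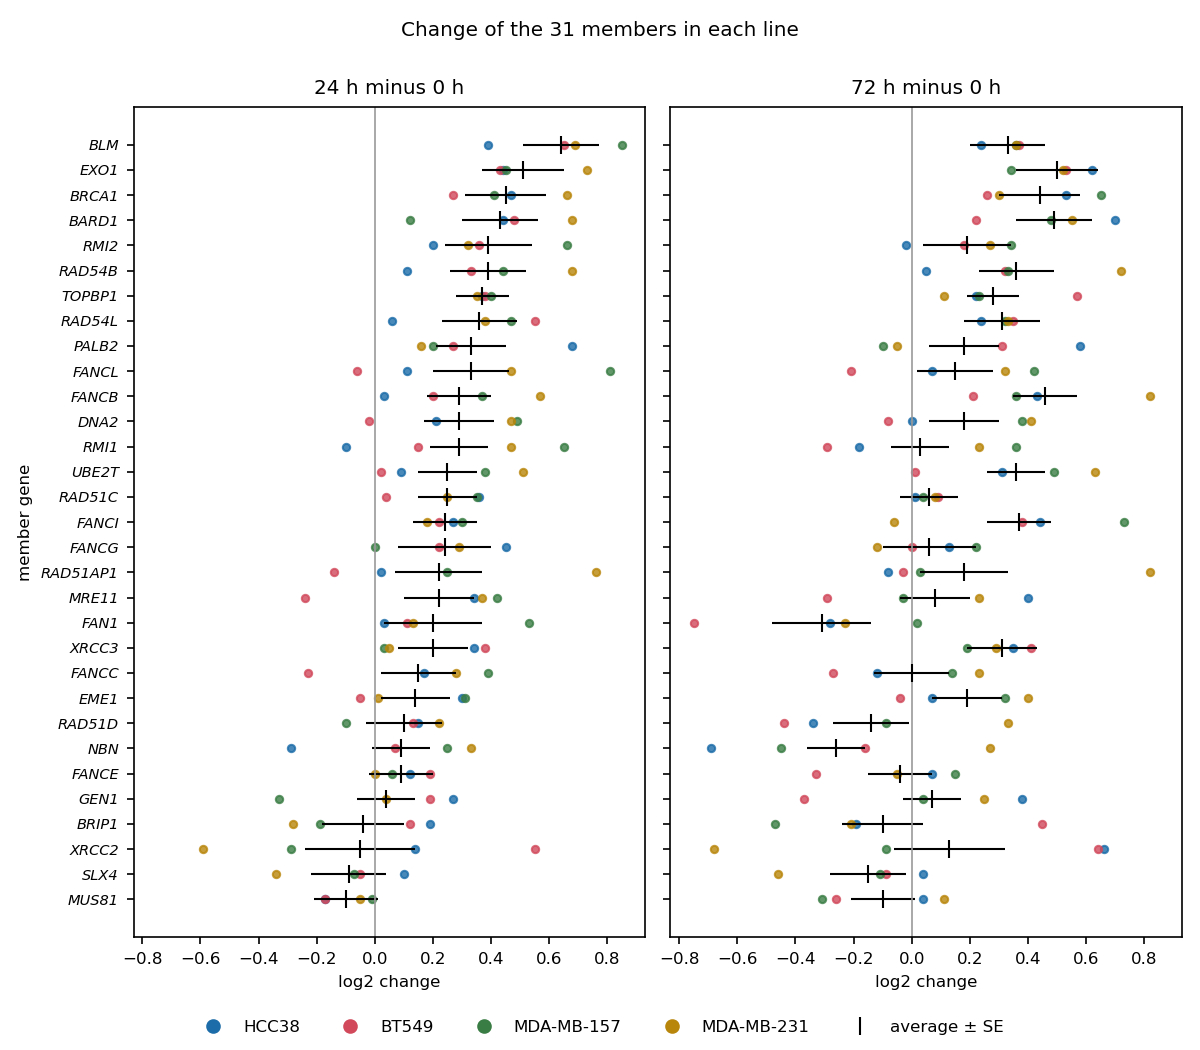
Log2 change from 0 h of each of the 31 members at 24 h (left) and 72 h (right). Coloured points are the 4 lines (each the difference of 2 means of 2 arrays), black ticks with bars are the average of the lines ± SE, and genes are ordered by the average at 24 h. At 24 h 27 averages lie above 0, and at 72 h 23 (23 and 18 with median scaling).

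The genes of DNA replication lay higher beside the members. The 39 measured genes of G1/S and replication (none a member) had a median change of 0.35 at 24 h and 0.28 at 72 h. Of the 39, 37 lay above 0 at both times, and 3 were called higher at 72 h, among 75 of all 14807 genes. The 32 G2/M and mitosis genes had averaged medians of -0.03 and 0.19, with 14 and 31 above 0, but the lines differed. Their medians were -0.01 and 0.25 in HCC38 and -0.07 and 0.40 in MDA-MB-157. In BT549 they were -0.38 and -0.42, with 2 of 32 above 0 at each time. In MDA-MB-231 they were 0.40 and 0.53, with 30 and 32 above 0, replicate 2 at 0 h included. Further factors that work with the pathway, 55 measured genes such as the RPA subunits and USP1, had medians of 0.05 and 0.01, and 1 of them was called. This was SWI5, an accessory factor of strand exchange, at 0.46 (SE 0.10) at 72 h (adjusted p 0.027 in limma), where 1.21% of all genes were called. The 9 genes of non-homologous end joining, the competing break repair pathway, had medians of 0.04 and 0.05, and the 11 housekeeping genes 0.05 and 0.02. Before the drug the members had mean levels of 7.75 and 7.26 in MDA-MB-231, where the G1/S genes had 9.06 and 8.23. In HCC38 the 0 h arrays gave 7.75 and 7.48 for the members, with 9.07 and 8.58 for the G1/S genes. In both lines the lower array was the same for both lists. Under median scaling the G1/S medians were 0.21 at 24 h and 0.14 at 72 h, with 35 and 28 of the 39 genes above 0. The G2/M medians were -0.19 at 24 h and 0.04 at 72 h, with 5 and 20 of the 32 genes above 0. The medians of the partner, end joining and housekeeping lists were then -0.06, -0.04 and -0.07 at 24 h and -0.10, -0.05 and -0.10 at 72 h, with the shift of all genes to -0.09 and -0.08. Without replicate 2 of MDA-MB-231 at 0 h the G1/S medians were 0.26 and 0.15 and the G2/M medians -0.12 and 0.09, the partner medians 0.06 and -0.02, the end joining medians 0.01 and 0.09 and the housekeeping medians -0.02 and -0.05. In bulk RNA a different share of cells of one kind, such as cells in S phase, and a different level per cell cannot be told apart, and the part of cell cycle position in the members' changes was not tested.

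**Figure D3:**
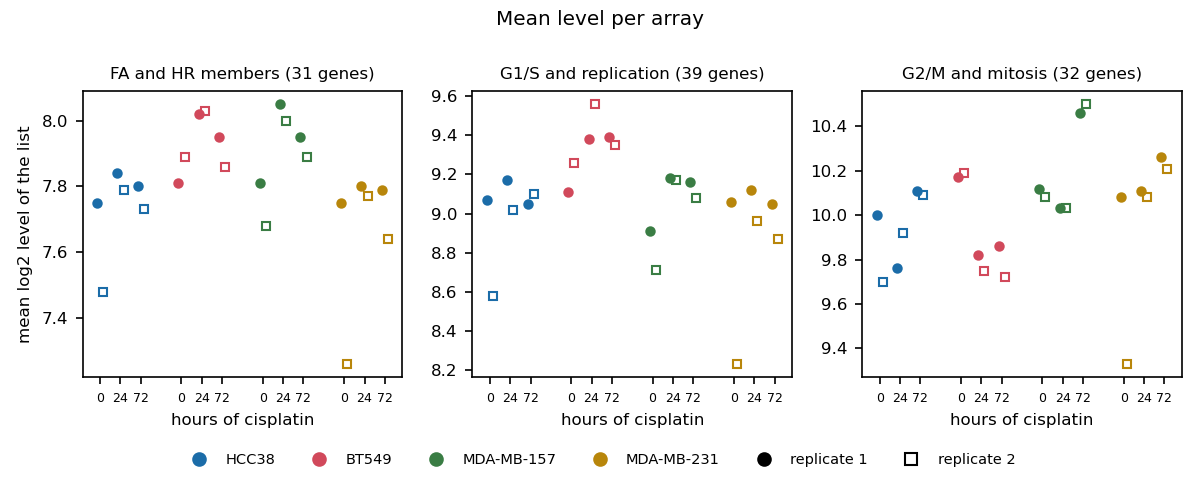
Mean log2 level of the 31 members, of 39 G1/S and replication genes and of 32 G2/M and mitosis genes on each of the 24 arrays, by line and hours of cisplatin (filled circles replicate 1, open squares replicate 2). Replicate 2 of MDA-MB-231 at 0 h is the lowest array in all 3 lists, at 7.26 for the members and 8.23 for the G1/S genes.

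Promoter windows of EXO1, TOPBP1 and BLM, chosen by their 24 h values, were set beside these values. E2F factors, which bind promoters of replication genes, and the CCAAT and CHR elements are known from cell cycle promoters. RefSeq windows on GRCh38.p14, from 250 bases before to 50 after an annotated start, were given for 26 of the 31 kept members (35 windows). NBN, RAD54B, RMI2, DNA2 and FANCI had none. The windows of EXO1 and TOPBP1, whose 24 h arrays lay above the 0 h arrays in every line, and of BLM, which had the largest 24 h change, are shown from 5′ to 3′. Capitals mark an E2F core (TTTGGCGC, TTTCCCGC, TTTCGCGC or TTTGCCGC on either strand) in EXO1 and TOPBP1, and the CCAAT box on either strand in BLM.
EXO1, chr1:241847954-241848253, plus strand: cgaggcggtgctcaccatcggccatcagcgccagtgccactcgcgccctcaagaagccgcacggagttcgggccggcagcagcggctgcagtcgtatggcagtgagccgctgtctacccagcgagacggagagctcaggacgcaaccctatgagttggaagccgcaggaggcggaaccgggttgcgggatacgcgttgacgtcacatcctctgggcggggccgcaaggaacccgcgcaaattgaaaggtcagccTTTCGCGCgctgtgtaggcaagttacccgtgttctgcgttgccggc
TOPBP1, chr3:133661892-133662191, minus strand: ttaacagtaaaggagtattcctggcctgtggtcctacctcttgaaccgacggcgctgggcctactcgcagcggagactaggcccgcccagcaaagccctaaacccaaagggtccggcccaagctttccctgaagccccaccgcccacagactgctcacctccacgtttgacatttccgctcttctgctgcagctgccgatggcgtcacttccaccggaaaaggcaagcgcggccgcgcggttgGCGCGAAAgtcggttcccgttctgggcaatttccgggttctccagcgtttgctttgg
BLM, chr15:90717096-90717395, plus strand: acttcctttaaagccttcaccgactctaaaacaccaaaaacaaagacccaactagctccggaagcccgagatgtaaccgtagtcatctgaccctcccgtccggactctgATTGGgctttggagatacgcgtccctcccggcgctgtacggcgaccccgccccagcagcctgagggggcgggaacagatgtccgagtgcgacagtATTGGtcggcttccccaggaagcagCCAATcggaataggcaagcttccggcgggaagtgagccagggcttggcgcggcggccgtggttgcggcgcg
The E2F core began 4 bases after the annotated start in EXO1 and 7 before it in TOPBP1, a second EXO1 window, not shown, held no E2F core, and the BLM window held 3 CCAAT boxes and no E2F core of these letters. An E2F core lay in 6 of 35 member windows (17.1%), against 3.31% of all 35116 windows. The genes were EXO1, TOPBP1, FANCC, GEN1, RMI1 and XRCC2. FANCC, GEN1, RMI1 and XRCC2 averaged 0.15, 0.04, 0.29 and -0.05 at 24 h. BRCA1 and BARD1, with larger 24 h averages of 0.45 and 0.43, held no E2F core in any of their windows. CCAAT lay in 37.1% of member windows against 34.6% of all, and the CHR element (TTTGAA or TTCGAA, either strand) in 11.4% against 16.4%. A match is a description of letters in the window, and a gene can have more than 1 window.

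Among the genes of the Fanconi core complex and ubiquitin transfer, 6 were kept, and all 6 averages lay above 0 at 24 h (median 0.25), 4 at 72 h (median 0.10). FANCB, the X-linked subunit that pairs with the E3 ligase FANCL in the core complex, had the largest change of the 6 at 72 h. FANCB lay at 5.96 and 5.82 at 0 h, 6.02 and 5.82 at 24 h and 6.19 and 6.45 at 72 h in HCC38, and at 6.50 and 7.11 at 0 h, 6.80 and 7.20 at 24 h and 6.88 and 7.16 at 72 h in BT549. In MDA-MB-157 FANCB lay at 7.32 and 7.40 at 0 h, 7.71 and 7.74 at 24 h and 7.75 and 7.70 at 72 h, and in MDA-MB-231 at 6.30 and 5.77 at 0 h, 6.84 and 6.39 at 24 h and 6.92 and 6.78 at 72 h. Both 72 h arrays lay above both 0 h arrays in HCC38, MDA-MB-157 and MDA-MB-231, and the BT549 arrays overlapped. The average change was 0.29 (SE 0.11, adjusted p 0.49 in limma) at 24 h and 0.46 (SE 0.11, adjusted p 0.053) at 72 h. A further FANCB probe, detected on all 24 arrays, gave 0.32 and 0.28. Its 72 h changes were -0.09 in HCC38, 0.03 in BT549, 0.38 in MDA-MB-157 and 0.79 in MDA-MB-231. Those of the first probe were 0.43, 0.21, 0.36 and 0.82, so the further probe did not show the 72 h difference in HCC38. UBE2T lay at 10.21 and 10.13 at 0 h, 10.07 and 10.44 at 24 h and 10.52 and 10.43 at 72 h in HCC38, and at 10.36 and 10.45 at 0 h, 10.43 and 10.43 at 24 h and 10.39 and 10.45 at 72 h in BT549. In MDA-MB-157 UBE2T lay at 10.50 and 10.72 at 0 h, 10.77 and 11.22 at 24 h and 11.08 and 11.13 at 72 h, and in MDA-MB-231 at 10.51 and 10.07 at 0 h, 10.70 and 10.89 at 24 h and 10.71 and 11.13 at 72 h. UBE2T, which hands ubiquitin to FANCD2 and FANCI, thus lay above its 0 h arrays at 72 h in the same 3 lines, while the BT549 arrays overlapped at both times. Its average was 0.25 (SE 0.10, adjusted p 0.49 in limma) at 24 h and 0.36 (SE 0.10, adjusted p 0.079) at 72 h. FANCL itself, the ligase subunit, averaged 0.33 and 0.15, and only in MDA-MB-157 did both arrays of either time lie above both 0 h arrays. The adaptor subunits FANCG, FANCC and FANCE averaged 0.24, 0.15 and 0.09 at 24 h and 0.06, -0.00 and -0.04 at 72 h. Without replicate 2 of MDA-MB-231 at 0 h, FANCG averaged 0.10 and -0.08, FANCC 0.07 and -0.09, and FANCL 0.21 and 0.03, and FANCE averaged -0.07 at 72 h.

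FANCE, which bridges the core complex to FANCD2, had the widest range between untreated lines of all 31 members. FANCE lay at 6.88 and 6.56 at 0 h, 6.93 and 6.74 at 24 h and 6.87 and 6.69 at 72 h in HCC38, and at 8.0 and 8.72 at 0 h, 8.42 and 8.68 at 24 h and 7.88 and 8.19 at 72 h in BT549. In MDA-MB-157 FANCE lay at 8.52 and 8.23 at 0 h, 8.54 and 8.33 at 24 h and 8.46 and 8.59 at 72 h, and in MDA-MB-231 at 9.68 and 9.47 at 0 h, 9.45 and 9.69 at 24 h and 9.70 and 9.36 at 72 h. All 6 HCC38 arrays lay below the other 18 and all 6 MDA-MB-231 arrays above, with BT549 and MDA-MB-157 between them and overlapping. The 0 h means spanned 2.86 (limma F test between lines, adjusted p 2.0e-08), and the mean of BT549 differed from that of MDA-MB-157 by 0.01, within the 95% half-width of 0.47 for a gap between lines. FANCG stood apart in BT549, where its 6 arrays lay at 9.56 to 10.06 and the other 18 at 7.70 to 9.33. In MDA-MB-157 FANCB lay at 7.32 to 7.75, and elsewhere at 5.77 to 7.20. A line set apart from the other 18 arrays in this way was found in 39.4% of all genes.

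Of FANCI and the crosslink nucleases, 6 were kept, and they divided. The averages lay above 0 for 4 at 24 h (median 0.09) and for 3 at 72 h (median -0.02). FANCI, the partner that is ubiquitinated together with FANCD2, had the largest averages of the 6. FANCI lay at 9.65 and 9.05 at 0 h, 9.64 and 9.60 at 24 h and 10 and 9.58 at 72 h in HCC38, and at 8.74 and 8.99 at 0 h, 9.15 and 9.01 at 24 h and 9.14 and 9.34 at 72 h in BT549. In MDA-MB-157 FANCI lay at 8.23 and 8.02 at 0 h, 8.21 and 8.65 at 24 h and 8.93 and 8.77 at 72 h, and in MDA-MB-231 at 8.11 and 7.56 at 0 h, 8.01 and 8.03 at 24 h and 7.90 and 7.65 at 72 h. At 72 h both arrays lay above both 0 h arrays in BT549 and MDA-MB-157 and overlapped in HCC38 and MDA-MB-231. The average change of FANCI was 0.24 (SE 0.11, adjusted p 0.56 in limma) at 24 h and 0.37 (SE 0.11, adjusted p 0.11) at 72 h. SLX4, the scaffold that holds several of them, averaged -0.09 at 24 h and -0.15 at 72 h. Its partner MUS81 averaged -0.10 at both times (-0.04 and -0.05 without replicate 2 of MDA-MB-231 at 0 h), while EME1, the MUS81 cofactor, averaged 0.14 and 0.19. GEN1, a Holliday junction resolvase near the detection limit (19 of 24 arrays), averaged 0.04 and 0.07. FAN1, a nuclease recruited to ubiquitinated FANCD2, averaged 0.20 at 24 h and -0.31 at 72 h. FAN1 lay at 7.01 and 6.64 at 0 h, 6.98 and 6.72 at 24 h and 6.47 and 6.61 at 72 h in HCC38, and at 6.55 and 6.06 at 0 h, 6.79 and 6.03 at 24 h and 6.19 and 4.91 at 72 h in BT549. In MDA-MB-157 FAN1 lay at 6.46 and 6.14 at 0 h, 6.99 and 6.67 at 24 h and 6.32 and 6.32 at 72 h, and in MDA-MB-231 at 6.52 and 6.11 at 0 h, 6.32 and 6.56 at 24 h and 6.41 and 5.77 at 72 h. The lowest FAN1 level, 4.91, was that of BT549 at 72 h in replicate 2, where the probe was not detected. The averages of FAN1 at 72 h therefore include a value not above background. In MDA-MB-157 the 6 arrays of EME1 lay at 7.05 to 7.62, above the 6.05 to 7.01 of the other lines, and those of MUS81 at 7.42 to 7.83, below 7.97 to 8.78. The 2 genes of this nuclease thus stood apart in MDA-MB-157 in opposite directions. In that line 7.77% of all genes lay wholly above the other 18 arrays and 5.67% wholly below.

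The BRCA1 complexes held several of the larger averages. Of the 5 kept genes, 4 averaged above 0 at both times (medians 0.37 and 0.28), and BRIP1 was the exception. BRCA1 is the ubiquitin ligase that promotes resection and loads PALB2 and BRCA2. BRCA1 lay at 6.37 and 5.45 at 0 h, 6.35 and 6.43 at 24 h and 6.51 and 6.38 at 72 h in HCC38, and at 7.63 and 7.38 at 0 h, 7.85 and 7.71 at 24 h and 7.67 and 7.87 at 72 h in BT549. In MDA-MB-157 BRCA1 lay at 7.29 and 6.92 at 0 h, 7.37 and 7.66 at 24 h and 7.88 and 7.62 at 72 h, and in MDA-MB-231 at 6.89 and 6.84 at 0 h, 7.21 and 7.83 at 24 h and 7.57 and 6.77 at 72 h. The 24 h arrays lay above both 0 h arrays in 3 lines and overlapped in HCC38, whose 0 h arrays lay at 6.37 and 5.45. At 72 h MDA-MB-231 was the line that overlapped. The average was 0.45 (SE 0.14, adjusted p 0.35 in limma) at 24 h and 0.44 (SE 0.14, adjusted p 0.13) at 72 h. A further BRCA1 probe gave 0.44 and 0.36. All 6 HCC38 arrays, at 5.45 to 6.51, lay below the other 18, at 6.77 to 7.88. The range of line means at 0 h was 1.60 (F test adjusted p 4.0e-04 in limma), and HCC38 was also the lowest line by the further probe, at 5.26 against 6.42 to 7.16.

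BARD1 lay at 8.87 and 8.90 at 0 h, 9.66 and 8.98 at 24 h and 9.47 and 9.68 at 72 h in HCC38, and at 8.72 and 8.55 at 0 h, 8.91 and 9.32 at 24 h and 8.75 and 8.96 at 72 h in BT549. In MDA-MB-157 BARD1 lay at 9.16 and 8.78 at 0 h, 9.24 and 8.95 at 24 h and 9.62 and 9.29 at 72 h, and in MDA-MB-231 at 8.52 and 7.85 at 0 h, 9.01 and 8.70 at 24 h and 8.85 and 8.61 at 72 h. BARD1, the partner that BRCA1 needs for ligase activity, lay above both 0 h arrays at 72 h in all 4 lines (0.493% of all genes). At 24 h it did so in all but MDA-MB-157. The average was 0.43 (SE 0.13, adjusted p 0.31 in limma) at 24 h and 0.49 (SE 0.13, adjusted p 0.060) at 72 h. Without replicate 2 of MDA-MB-231 at 0 h, that line's BARD1 change was 0.34 at 24 h and 0.22 at 72 h, and without replicate 1 it was 1.01 and 0.89. TOPBP1, a scaffold for ATR activation that also binds BRCA1 complexes, is described because of its values. TOPBP1 lay at 10.36 and 10.05 at 0 h, 10.58 and 10.57 at 24 h and 10.43 and 10.43 at 72 h in HCC38, and at 9.32 and 9.54 at 0 h, 9.72 and 9.89 at 24 h and 9.97 and 10.04 at 72 h in BT549. In MDA-MB-157 TOPBP1 lay at 9.33 and 9.37 at 0 h, 9.77 and 9.73 at 24 h and 9.51 and 9.65 at 72 h, and in MDA-MB-231 at 9.02 and 8.67 at 0 h, 9.04 and 9.35 at 24 h and 8.90 and 9.0 at 72 h. Both 24 h arrays lay above both 0 h arrays in all 4 lines, as for EXO1 and for no other member (0.236% of all genes). Over at least 3 lines this held for 6 members at 24 h, where 2.45% of all genes did so, and for 7 at 72 h (4.3% of all genes). The 24 h changes of TOPBP1 were 0.35 in MDA-MB-231, 0.37 in HCC38, 0.38 in BT549 and 0.40 in MDA-MB-157, and the average was 0.37 (SE 0.09, adjusted p 0.20 in limma). The MDA-MB-231 change of TOPBP1 at 24 h was 0.18 against replicate 1 alone at 0 h and 0.52 against replicate 2 alone. The lower 24 h array there lay at 9.04 and the higher 0 h array at 9.02. At 72 h TOPBP1 averaged 0.28 (SE 0.09, adjusted p 0.11 in limma). Its 72 h changes were 0.22 in HCC38, 0.57 in BT549, 0.23 in MDA-MB-157 and 0.11 in MDA-MB-231, where the arrays overlapped. PALB2, the bridge between BRCA1 and BRCA2, averaged 0.33 at 24 h and 0.18 at 72 h, with the largest change, 0.68, in HCC38. BRIP1, a helicase that binds BRCA1, was detected on 13 arrays and averaged -0.04 and -0.10, and -0.18 and -0.25 without replicate 2 of MDA-MB-231 at 0 h.

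**Figure D4:**
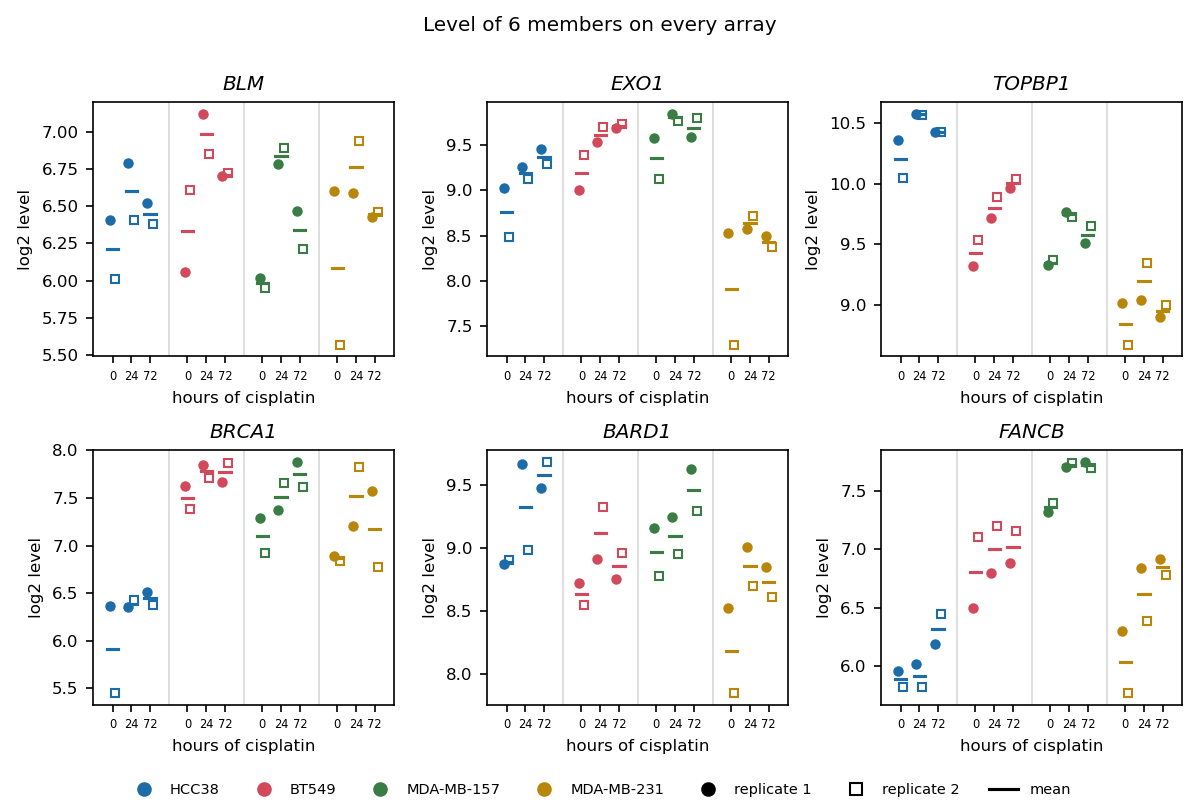
Log2 level of BLM, EXO1, TOPBP1, BRCA1, BARD1 and FANCB on all 24 arrays, by line and hours of cisplatin (filled circles replicate 1, open squares replicate 2, bars the mean). The 24 h arrays of EXO1 and TOPBP1 lie above the 0 h arrays in every line, and replicate 2 of MDA-MB-231 at 0 h is low for BLM at 5.57 and EXO1 at 7.29.

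Of the resection genes 4 were kept, with all 4 averages above 0 at 24 h (median 0.25) and 3 at 72 h (median 0.13). EXO1, the exonuclease that extends resection, had the largest change of all members at 72 h. EXO1 lay at 9.03 and 8.49 at 0 h, 9.26 and 9.13 at 24 h and 9.46 and 9.29 at 72 h in HCC38, and at 9.0 and 9.39 at 0 h, 9.54 and 9.70 at 24 h and 9.69 and 9.74 at 72 h in BT549. In MDA-MB-157 EXO1 lay at 9.58 and 9.13 at 0 h, 9.85 and 9.77 at 24 h and 9.59 and 9.80 at 72 h, and in MDA-MB-231 at 8.53 and 7.29 at 0 h, 8.57 and 8.72 at 24 h and 8.50 and 8.37 at 72 h. Both 24 h arrays lay above both 0 h arrays in every line, in MDA-MB-231 by 8.57 against 8.53, and at 72 h the MDA-MB-231 arrays overlapped. The average was 0.51 (SE 0.14, adjusted p 0.26 in limma) at 24 h and 0.50 (SE 0.14, adjusted p 0.084) at 72 h. A dimmer EXO1 probe detected on all arrays gave 0.79 and 0.61. Against replicate 1 alone at 0 h the MDA-MB-231 changes of EXO1 were 0.12 and -0.10, and against replicate 2 alone 1.35 and 1.14. DNA2, a nuclease and helicase of the same step, averaged 0.29 and 0.18 (0.09 at 72 h without replicate 2 of MDA-MB-231 at 0 h), and its further probe 0.53 and 0.08.

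The MRN complex starts resection, and its kept members had different averages. MRE11, the nuclease, averaged 0.22 at 24 h and 0.08 at 72 h, and 0.11 and -0.04 without replicate 2 of MDA-MB-231 at 0 h. NBN, the subunit that recruits the kinase ATM, averaged 0.09 at 24 h (0.05 without that array) and -0.26 (SE 0.10, adjusted p 0.21 in limma) at 72 h. NBN lay at 9.82 and 9.99 at 0 h, 9.56 and 9.67 at 24 h and 9.05 and 9.37 at 72 h in HCC38, and at 9.22 and 9.35 at 0 h, 9.11 and 9.60 at 24 h and 9.32 and 8.94 at 72 h in BT549. In MDA-MB-157 NBN lay at 9.34 and 9.35 at 0 h, 9.55 and 9.65 at 24 h and 9.06 and 8.73 at 72 h, and in MDA-MB-231 at 8.89 and 8.55 at 0 h, 9.19 and 8.92 at 24 h and 8.96 and 9.03 at 72 h. Both 72 h arrays of NBN lay below both 0 h arrays in HCC38 and MDA-MB-157 and above them in MDA-MB-231. The 72 h changes were -0.69 in HCC38, -0.45 in MDA-MB-157, -0.16 in BT549 and 0.27 in MDA-MB-231. A further NBN probe gave -0.58, -0.17, -0.40 and 0.39 in that order, and averaged -0.05 at 24 h and -0.19 at 72 h. The 72 h changes of NBN were not called different between lines (F test p 0.018, adjusted p 0.42 in limma), and 9.53% of all genes had an unadjusted p under 0.05 in that test. MRE11 was low throughout in MDA-MB-157, at 5.95 to 6.63 against 6.74 to 8.06 in the other lines.

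Of the 7 strand exchange genes, all kept, 6 averaged above 0 at each time, with medians of 0.22 and 0.18. This group held the widest differences between the lines after FANCE. RAD54B, a motor protein of strand exchange, was among the larger averages. RAD54B lay at 7.77 and 7.19 at 0 h, 7.70 and 7.49 at 24 h and 7.55 and 7.52 at 72 h in HCC38, and at 8.72 and 8.68 at 0 h, 8.85 and 9.20 at 24 h and 9.04 and 9.0 at 72 h in BT549. In MDA-MB-157 RAD54B lay at 7.52 and 7.64 at 0 h, 8.06 and 7.98 at 24 h and 8.12 and 7.70 at 72 h, and in MDA-MB-231 at 7.19 and 6.42 at 0 h, 7.86 and 7.11 at 24 h and 7.55 and 7.49 at 72 h. Both 24 h arrays lay above both 0 h arrays in BT549 and MDA-MB-157 and overlapped in HCC38 and MDA-MB-231. The average was 0.39 (SE 0.13, adjusted p 0.38 in limma) at 24 h and 0.36 (SE 0.13, adjusted p 0.17) at 72 h. At every time BT549 lay highest, at 8.68 to 9.20 against 6.42 to 8.12, and the 0 h range of line means was 1.90 (F test adjusted p 2.9e-05 in limma). RAD54L lay at 6.45 and 5.99 at 0 h, 6.46 and 6.10 at 24 h and 6.52 and 6.41 at 72 h in HCC38, and at 8.14 and 8.60 at 0 h, 8.89 and 8.94 at 24 h and 8.60 and 8.84 at 72 h in BT549. In MDA-MB-157 RAD54L lay at 8.80 and 8.42 at 0 h, 9.21 and 8.94 at 24 h and 8.93 and 8.93 at 72 h, and in MDA-MB-231 at 7.86 and 6.89 at 0 h, 7.78 and 7.73 at 24 h and 7.85 and 7.56 at 72 h. RAD54L, a related motor protein, lay lowest in HCC38 on all 6 arrays, at 5.99 to 6.52 against 6.89 to 9.21. Its 0 h range was 2.39 (F test adjusted p 4.5e-07 in limma), and BT549 and MDA-MB-157 were 0.24 apart, within the half-width of 0.54. The averages of RAD54L were 0.36 and 0.31, the second of them 0.19 without replicate 2 of MDA-MB-231 at 0 h.

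RAD51AP1, which stimulates strand pairing, was the counterpart in MDA-MB-157. RAD51AP1 lay at 9.67 and 10.03 at 0 h, 9.62 and 10.12 at 24 h and 9.71 and 9.83 at 72 h in HCC38, and at 9.54 and 9.80 at 0 h, 9.29 and 9.76 at 24 h and 9.65 and 9.62 at 72 h in BT549. In MDA-MB-157 RAD51AP1 lay at 7.48 and 7.21 at 0 h, 7.35 and 7.85 at 24 h and 7.22 and 7.53 at 72 h, and in MDA-MB-231 at 9.81 and 8.58 at 0 h, 9.94 and 9.98 at 24 h and 9.89 and 10.15 at 72 h. All 6 MDA-MB-157 arrays lay at 7.21 to 7.85 and the other 18 at 8.58 to 10.15. The range at 0 h was 2.50 (F test adjusted p 1.5e-06 in limma). Among the other 3 lines, neighbours lay 0.47 and 0.18 apart, within the half-width of 0.63, which does not hold for MDA-MB-231 and HCC38, at 9.20 and 9.85. That gap rests on replicate 2 of MDA-MB-231 at 0 h, at 8.58, as replicate 1 lay at 9.81. RAD51AP1 averaged 0.22 at 24 h and 0.18 at 72 h, but 0.07 and 0.03 without replicate 2 of MDA-MB-231 at 0 h and 0.38 and 0.34 without replicate 1. The MDA-MB-231 changes, 0.76 and 0.82, were 0.15 and 0.20 against replicate 1 alone at 0 h. RAD51C lay at 9.0 and 8.84 at 0 h, 9.14 and 9.43 at 24 h and 8.92 and 8.94 at 72 h in HCC38, and at 8.70 and 8.91 at 0 h, 8.75 and 8.94 at 24 h and 8.83 and 8.96 at 72 h in BT549. In MDA-MB-157 RAD51C lay at 10.48 and 10.42 at 0 h, 10.66 and 10.95 at 24 h and 10.42 and 10.56 at 72 h, and in MDA-MB-231 at 9.65 and 9.05 at 0 h, 9.55 and 9.64 at 24 h and 9.69 and 9.18 at 72 h. RAD51C, a subunit shared by complexes that act in strand exchange, was highest in MDA-MB-157, at 10.42 to 10.95 against 8.70 to 9.69 elsewhere. The 0 h range was 1.65 (F test adjusted p 3.1e-06 in limma), and its 2 further probes were also highest there. Its averages were 0.25 at 24 h and 0.06 at 72 h (-0.02 without replicate 2 of MDA-MB-231 at 0 h), and the further probes gave 0.40 and 0.26, and 0.41 and 0.26.

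XRCC3, the partner of RAD51C, averaged 0.20 at 24 h and 0.31 at 72 h, and RAD51D 0.10 and -0.14. XRCC2, the partner of RAD51D, lay above 0 at 72 h in HCC38 (0.66) and BT549 (0.64) and below 0 in MDA-MB-231 (-0.68). XRCC2 lay at 8.66 and 9.03 at 0 h, 9.20 and 8.77 at 24 h and 9.11 and 9.89 at 72 h in HCC38, and at 8.42 and 8.16 at 0 h, 8.31 and 9.38 at 24 h and 8.77 and 9.09 at 72 h in BT549. In MDA-MB-157 XRCC2 lay at 9.51 and 9.78 at 0 h, 9.39 and 9.32 at 24 h and 9.74 and 9.37 at 72 h, and in MDA-MB-231 at 8.55 and 10.03 at 0 h, 8.57 and 8.84 at 24 h and 8.35 and 8.88 at 72 h. The 0 h arrays of MDA-MB-231 were thus 8.55 and 10.03, and against replicate 1 alone the XRCC2 changes there were 0.15 and 0.06. The difference between lines was not called (F test adjusted p 0.56 at 72 h in limma). XRCC2 averaged -0.05 and 0.13, and 0.14 and 0.32 without replicate 2 of MDA-MB-231 at 0 h. A dimmer XRCC2 probe, detected on 19 arrays, averaged 0.04 and 0.09. Its 72 h changes were 0.40 in HCC38, -0.28 in BT549, 0.05 in MDA-MB-157 and 0.19 in MDA-MB-231. Their sign was opposite to that of the first probe in every line but HCC38.

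**Figure D5:**
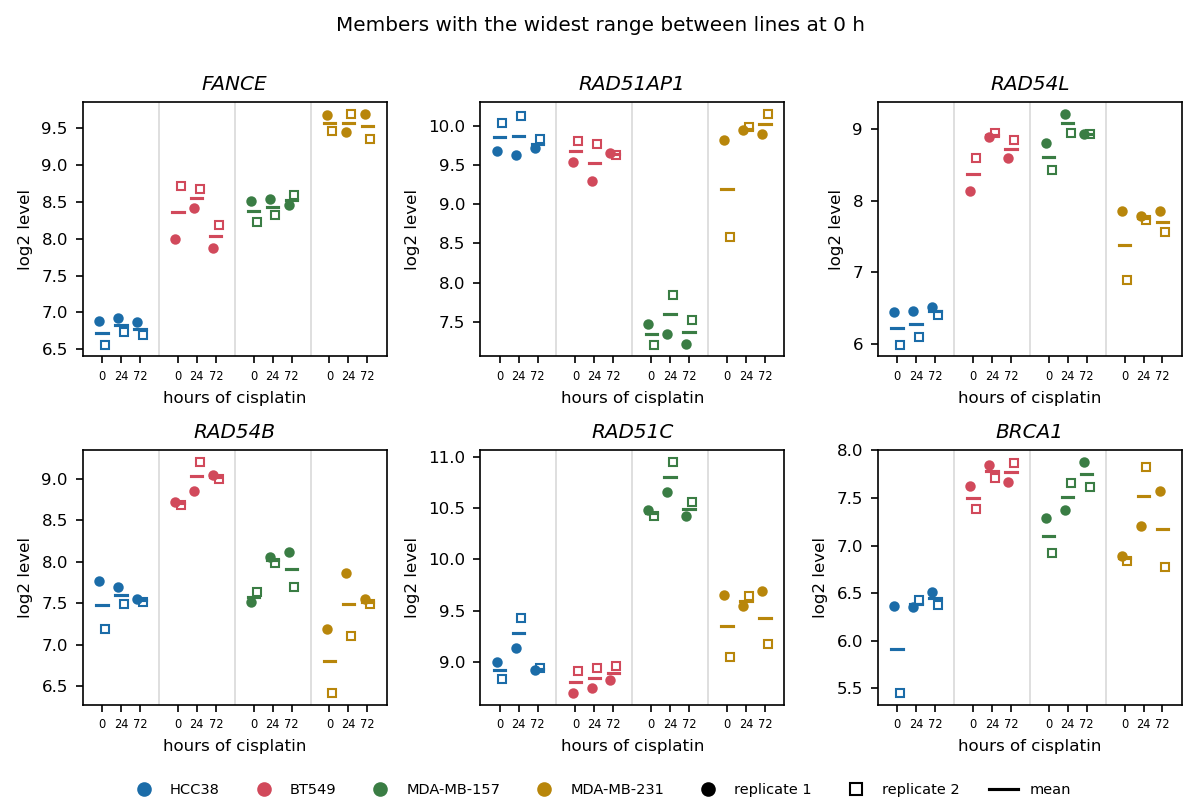
Log2 level of the 6 members with the widest range of line means at 0 h, on all 24 arrays, by line and hours of cisplatin (filled circles replicate 1, open squares replicate 2, bars the mean). HCC38 is the lowest line for FANCE, RAD54L and BRCA1, MDA-MB-157 the lowest for RAD51AP1 and the highest for RAD51C, and BT549 the highest for RAD54B.

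The BLM dissolution complex had all 3 kept members above 0 at both times on average, with medians of 0.39 and 0.19. BLM, the helicase that unwinds double Holliday junctions, had the largest 24 h change of the 31 members. BLM lay at 6.41 and 6.01 at 0 h, 6.79 and 6.41 at 24 h and 6.52 and 6.38 at 72 h in HCC38, and at 6.06 and 6.61 at 0 h, 7.12 and 6.85 at 24 h and 6.70 and 6.72 at 72 h in BT549. In MDA-MB-157 BLM lay at 6.02 and 5.95 at 0 h, 6.78 and 6.89 at 24 h and 6.47 and 6.21 at 72 h, and in MDA-MB-231 at 6.60 and 5.57 at 0 h, 6.59 and 6.94 at 24 h and 6.43 and 6.46 at 72 h. At 24 h both arrays lay above both 0 h arrays in BT549 and MDA-MB-157, and in HCC38 by less than the printed digits, while in MDA-MB-231 they overlapped. The average was 0.64 (SE 0.13, adjusted p 0.15 in limma), a fold of 1.56 (95% interval 0.37 to 0.92 on the log2 scale). It was 0.33 (SE 0.13, adjusted p 0.22) at 72 h. BLM was not called different between the lines at 0 h (F test adjusted p 0.62 in limma), with a range of line means of 0.36. RMI2 lay at 9.29 and 9.12 at 0 h, 9.45 and 9.36 at 24 h and 9.18 and 9.19 at 72 h in HCC38, and at 8.47 and 8.07 at 0 h, 8.89 and 8.36 at 24 h and 9.01 and 7.88 at 72 h in BT549. In MDA-MB-157 RMI2 lay at 9.21 and 8.87 at 0 h, 9.68 and 9.73 at 24 h and 9.44 and 9.32 at 72 h, and in MDA-MB-231 at 8.67 and 7.91 at 0 h, 8.65 and 8.57 at 24 h and 8.71 and 8.41 at 72 h. RMI2, a small subunit that stabilises the complex, lay above both 0 h arrays at 24 h in HCC38 and MDA-MB-157 and overlapped in BT549 and MDA-MB-231. Its average was 0.39 (SE 0.15, adjusted p 0.48 in limma) at 24 h and 0.19 (SE 0.15, adjusted p 0.58) at 72 h. RMI1, the other accessory subunit, averaged 0.29 and 0.03. Against replicate 1 alone at 0 h, the MDA-MB-231 changes at 24 h were 0.17 for BLM, 0.15 for RMI1 and -0.06 for RMI2, and against replicate 2 alone 1.20, 0.79 and 0.70. Without replicate 2 the 72 h averages over the lines were 0.20 for BLM, -0.05 for RMI1 and 0.10 for RMI2.

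Before the drug the lines differed in most members, as they did in most genes. limma's F test called 24 of 31 (77.4%), where 66.8% of all genes were called. UBE2T, FAN1, BRIP1, PALB2, RAD51D, XRCC3 and BLM were not called. A line's 6 arrays all lay below or all above the other 18 in 12 members, and 39.4% of all genes had such a line. HCC38 was the low line for BRCA1, FANCE and RAD54L and the high line for TOPBP1, at 10.05 to 10.58 against 8.67 to 10.04. MDA-MB-157 was high for EME1, FANCB and RAD51C and low for MRE11, MUS81 and RAD51AP1. BT549 was high for FANCG and RAD54B, and MDA-MB-231 for FANCE. The changes with cisplatin were not called different between lines in any member by limma's F test. At 24 h 0 members and 0% of all genes were called, and 0 members had an unadjusted p under 0.05 (4.25% of all genes). At 72 h 0 members and 0.0405% of all genes were called, and 1 member had an unadjusted p under 0.05, a smaller share than the 9.53% of all genes.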

How the data were processed

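RNA of 24 cultures (4 lines, 3 times, 2 replicates described as independent in the series' design text) was measured on Illumina bead arrays. The authors deposited an intensity for each probe and array that was not normalized. How beads were summarised is not given in the sources used here. The detection p-value beside each intensity is named so per the file headers. A second table that the authors deposited holds log2 values whose method is not stated, and its identifiers did not correspond to its values: of 47322 probes 33 had the same identifier after matching by value (47319 matched within 0.02). Over 1742 genes with 2 detected probes, the median correlation between the probes of a gene was 0.812 in the intensity table and 0.001 in the second table by its own identifiers. That table was used as an alternative only, after matching by value. No per-sample columns (0) were left out.

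Probe symbols came from the platform annotation, updated through the RefSeq gene table of GRCh38.p14 (30112 probes with 1 symbol, 8 with several, 17202 with none). Background was corrected by normexp in limma 3.58.1 (R 4.3.3, offset 16, negative controls inferred from the detection p-values), followed by log2 and quantile normalization. Probes detected on at least 2 arrays were kept, 1 per gene by highest mean. All arrays entered 1 limma fit with a mean for each group (12 residual and 6.87 prior degrees of freedom) and adjusted p-values over 14807 genes. Averages weight the lines equally. Errors rest on 1 spread per gene, shared by all 24 arrays, so that the gap between the MDA-MB-231 arrays at 0 h enters every comparison. The scripts were tested on simulated data. Values on every array are given for members called, for the 6 with the largest average change at 24 h and the 6 at 72 h, and for the 6 with the widest 0 h range between lines. TOPBP1, NBN, FAN1 and XRCC2 were added after their values were seen. The members, the gene lists and the tests were chosen with earlier results of these data known. Alternatives changed the background correction, normalization, detection filter, probe choice, slide and replicate blocks, array weights, lines and single arrays.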

Additional observations from a re-analysis of the deposited data

How the results depend on the processing

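The count of 0 called members held for 24 h under every alternative but 1, and for 72 h under fewer. At 72 h, averaged over the lines, limma called 4 members without background correction and with a normexp offset of 50 (FANCB, BARD1, UBE2T and TOPBP1 in both), 1 with detection on at least 12 arrays and 1 with array quality weights (FANCB in both). In BT549 at 72 h 1 member, TOPBP1, was called under either of those background settings. Over all genes, the 179 called at 72 h became 352 without background correction, 338 with an offset of 50, 0 with median scaling, 51 in the authors' table and 504 with the replicate block, and the 2 at 24 h became 11 with that block. Labels tie replicates by number only, and the differences between replicates of 2 times of a line correlated at -0.049 to 0.501. With a replicate block within each line, 3 members were called at 72 h (FANCB, BARD1 and EXO1, adjusted p 0.012, 0.021 and 0.044), 26 differed between lines at 0 h, and the other counts of called members stayed at 0. Median scaling moved the members' median to 0.09 at 24 h and 0.02 at 72 h. Leaving out 1 array at a time, the called members ranged from 0 to 4 at 24 h, 0 to 9 at 72 h, 0 to 1 from 24 h to 72 h, 0 to 1 in BT549 at 72 h, and 0 to 7 and 0 to 6 in MDA-MB-231 at 24 h and 72 h. The highest counts in the averages with 0 h and in MDA-MB-231 came without replicate 1 of MDA-MB-231 at 0 h, and the others without replicate 1 of BT549 at 72 h. The members called different between lines at 0 h ranged from 20 to 24, and the median change from 0.17 to 0.33 at 24 h and from 0.09 to 0.21 at 72 h. Members that changed sign were all uncalled, and under median scaling the median of all genes itself lay at -0.09 and -0.08. With median scaling these were at 24 h FANCE (-0.06), RAD51D (-0.05), NBN (-0.05) and GEN1 (-0.02) and at 72 h FANCG (-0.10), RAD51C (-0.10), XRCC2 (-0.02), MRE11 (-0.07) and RMI1 (-0.12). With the authors' deposited log2 values these were at 24 h BRIP1 (0.05) and at 72 h FANCC (0.02), FANCG (-0.04), BRIP1 (0.03), RAD51C (-0.01) and RMI1 (-0.04). On slide 1 alone these were at 24 h RAD51AP1 (-0.22), XRCC2 (0.12) and NBN (-0.11) and at 72 h FANCG (-0.01), RAD51D (0.10), RAD51AP1 (-0.09), MRE11 (-0.07), MUS81 (0.06) and RMI1 (-0.10). On slide 2 alone these were at 24 h BRIP1 (0.09), RAD51D (-0.13) and FAN1 (-0.01) and at 72 h FANCC (0.10), FANCE (0.03), BRIP1 (0.07) and GEN1 (-0.04). Without HCC38 these were at 24 h GEN1 (-0.03) and at 72 h FANCC (0.03), XRCC2 (-0.04), MRE11 (-0.03) and GEN1 (-0.03). Without BT549 these were at 24 h GEN1 (-0.01) and at 72 h FANCC (0.08), FANCE (0.05) and XRCC2 (-0.04). Without MDA-MB-157 these were at 24 h BRIP1 (0.01) and XRCC2 (0.04) and at 72 h BRIP1 (0.02) and RMI1 (-0.08). Without MDA-MB-231 these were at 24 h BRIP1 (0.04) and XRCC2 (0.14) and at 72 h RAD51AP1 (-0.03) and RMI1 (-0.04). Leaving out 1 array turned the sign of members that ranged as follows, at 24 h FANCE (-0.00 to 0.18), BRIP1 (-0.18 to 0.10), XRCC2 (-0.23 to 0.14) and GEN1 (-0.03 to 0.12) and at 72 h FANCC (-0.09 to 0.08), FANCE (-0.13 to 0.05), FANCG (-0.08 to 0.20), BRIP1 (-0.25 to 0.04), RAD51C (-0.02 to 0.13), XRCC2 (-0.05 to 0.32), MRE11 (-0.04 to 0.19) and RMI1 (-0.05 to 0.11). The cause of these differences was not tested, and 2 arrays per group limit what can be called.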
